A study of Rattus norvegicus with 4 samples.

Results

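Bone marrow cells from Wistar rats aged 6 weeks were grown for 15 days at high density (HD) or, as the control, at regular density (RD), and their total RNA was measured on Agilent one-colour arrays. The detoxification enzymes described here are the glutathione transferases, aldo-keto, carbonyl and quinone reductases, aldehyde dehydrogenases, aldehyde oxidases, glutathione peroxidases and thioredoxin reductases, with haem oxygenase, glutathione reductase and the KEAP1 and NRF2 pair. They were chosen by gene symbol from the authors' probe table, as symbols that begin with 1 of 15 family names or equal 1 of 6 names. This gave 70 probes of 63 genes among the 21473 probes of that table. The symbols of the Akr1 and Akr7 families already end in a digit and all their rows were taken, which gave 11 of the 70 probes. Gclc and Gclm were on the list of names, but the authors' table held 0 rows of either.

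Each group had 2 arrays, and the submitters describe 2 independent experiments with different cells. All 4 samples share the strain, the age, the marrow source and the length of culture. Whether HD and RD samples of the same replicate number came from the same experiment is not stated. The sources used here state no seeding number, medium or number of animals. The submitters name the cells endothelial progenitor cells. Of 12 endothelial marker genes, Cdh5, Vwf, Tie1 and Flt1 lay above background on all 4 arrays and were bright enough to test. Prom1 and Esam were above background on both HD arrays and on 0 RD arrays, and their signal was at least 2.24-fold and at least 1.84-fold higher at high density. Cd34, Tek, Nos3 and Emcn lay under background on all 4 arrays, Pecam1 was above it on 1 RD array and Kdr on 1 HD array. The markers were thus mixed, and the samples are called marrow cultures here.

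Cells remove reactive aldehydes, quinones, peroxides and foreign compounds by reducing or oxidising them, by joining them to the tripeptide glutathione, and by exporting the products. Many of the genes involved are switched on by the transcription factor NRF2 (gene Nfe2l2), which its partner KEAP1 holds in the cytoplasm and marks for breakdown until reactive compounds modify KEAP1. NRF2 binds a short DNA motif called the antioxidant response element. In marrow, these enzymes are known for protecting stem and stromal cells from oxidants and drugs, and macrophages use haem oxygenase to break down the haem of old red cells.

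Most of the detoxification genes that differed were lower at high density. Of the 70 probes, 58 were bright enough over all 4 arrays to be tested and 12 were too dim. Of the 58, 25 fell at high density, 1 rose and 32 did not pass the test, which was limma's moderated test with Benjamini-Hochberg adjustment over all 15183 tested probes and a threshold of 0.05. Lower calls thus made up 43.1% of the tested detoxification probes, where the background over all tested probes was 17.7% lower. Higher calls made up 1.72%, where the background was 12.8% higher, and calls in either direction made up 44.8%, where the background was 30.5%. The 25 probes that fell belong to 23 genes. For 3 of the 58, Akr1cl1, Akr1c14 and 1 probe of Gpx2, the mean of 1 group was under the level needed for testing, and of the other 55, 23 fell and 1 rose.

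The size of the falls ranged widely. Of the 58 tested probes, 8 were called lower with a fold of 2 or more, against a background of 1.69% of tested probes. By that much 0 rose, against a background of 4.58%. The 8 include Akr1cl1 and Akr1c14, and of the 55 probes with both group means above the level needed for testing, 6 fell by that much. The median log2 change, HD minus RD, was -0.36 over the 58 tested probes and -0.33 over all 70, beside -0.08 over all tested probes. The same median was -0.38 between the replicate 1 samples and -0.34 between the replicate 2 samples. For all 26 called probes the groups did not overlap, which fixes the same sign within both replicate numbers. A call itself favours probes without overlap, so this is no added support for the calls. Of the 58 tested detoxification probes, called or not, 49 were without overlap, beside a background of 69.2% of tested probes. In bulk RNA of this kind, fewer cells of a type and less RNA per cell cannot be told apart.

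The scaling between arrays set part of these counts. Over all tested probes, 1948 calls were higher and 2690 lower as reported, 1323 higher and 3565 lower with median scaling, 1996 higher and 2045 lower with quantile scaling, and 1506 higher and 626 lower with no scaling. The median change of all tested probes was -0.20 with median scaling and 0.03 with no scaling. With no scaling, 9 detoxification probes were lower and 1 higher, and 16 of the 26 calls were lost. The other 10 were Akr1cl1, Gsta3, Nqo1, Aox1, Akr1c14, Gsta5, Gstm7, Gstp1, 1 probe of Akr1cl2, and Mgst3. They kept call and direction under the alternatives in which they were tested, except that Gstp1 and Mgst3 did not reach the fold threshold of 2, and that Akr1cl1, Akr1c14, Gstm7 and Akr1cl2 were too dim to be tested under the stricter filter.

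**Figure D1:**
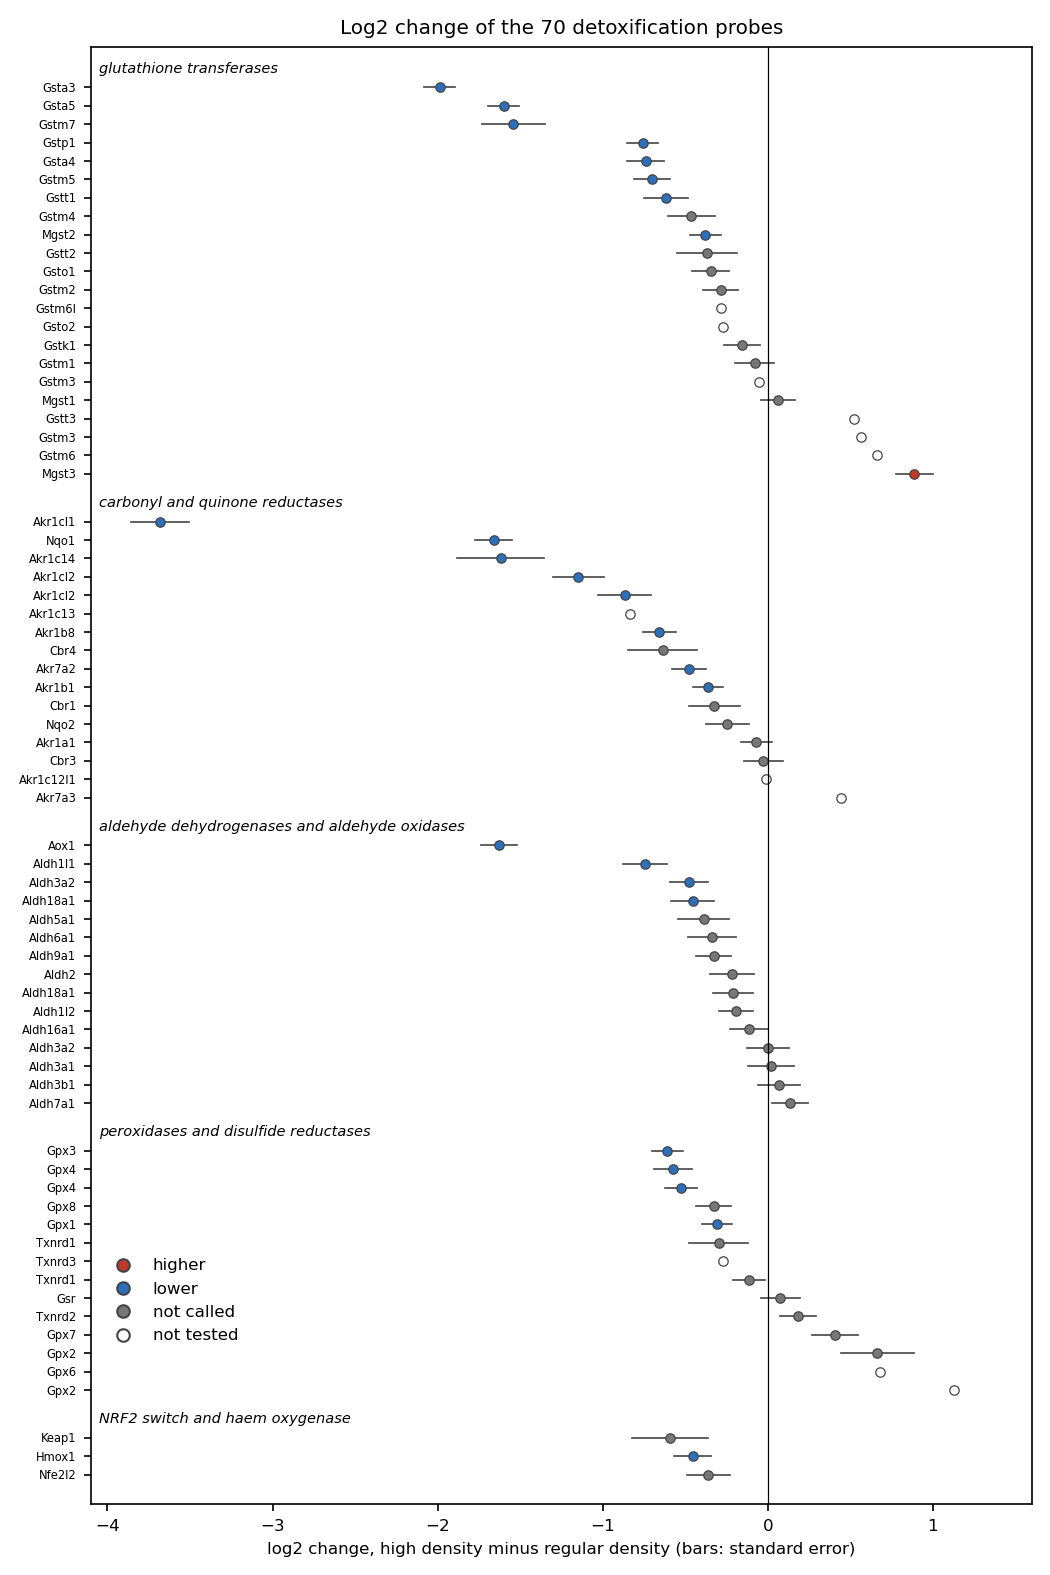
Log2 change (HD minus RD, x axis) of each of the 70 detoxification probes, ordered by role, with the standard error of the fitted change as a bar for the 58 tested probes. The 25 called lower (blue) spread from Akr1cl1 at -3.68 to Gpx1 at -0.31, and the 1 called higher (red) is Mgst3 at 0.89.

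**Figure D2:**
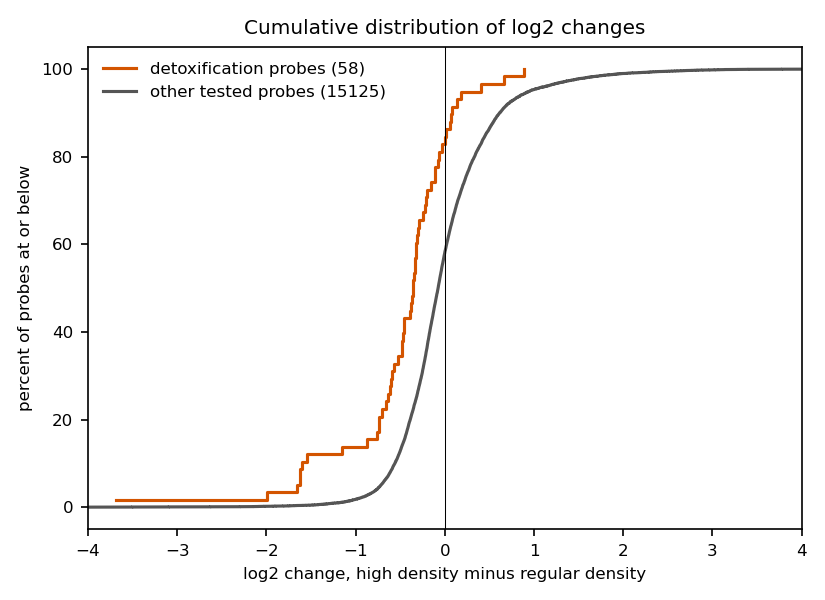
Percent of probes (y axis) with a log2 change, HD minus RD, at or below the value on the x axis, for the 58 tested detoxification probes (orange) and the 15125 other tested probes (grey), 10 of which lie outside the axis. The orange curve runs left of the grey one, with medians of -0.36 and -0.08.

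Marker genes of other cell types also differed between the groups. The summed scaled intensity of 8 smooth muscle markers was 160527 and 154536 on the HD arrays, against 20444 and 19362 on the RD arrays, and 6 of the 7 tested were higher. That of 13 macrophage markers was 51599 and 45569 on the HD arrays, against 36107 and 33462 on the RD arrays, with 6 of 11 tested higher and 1 lower and with Cd163 and Marco under background on all 4 arrays. That of 11 stromal markers was 275855 and 258610 on the HD arrays, against 268884 and 236257 on the RD arrays, with 4 of 11 higher and 1 lower. Most of this sum came from the collagen genes Col1a1, Col1a2 and Col3a1, which were not called. The 4 higher were Cxcl12, Nt5e, Thy1 and Lum, at log2 changes of 2.04, 1.57, 1.20 and 0.40, and the 1 lower was Dcn, at -1.34. The 12 endothelial markers summed to 929 and 737 on the HD arrays, against 611 and 536 on the RD arrays, and 1 of 4 tested, Flt1, was higher. The 8 measured adipocyte markers summed to 1105 and 1177 on the HD arrays, against 687 and 690 on the RD arrays, with 3 of 4 tested higher and with Adipoq, Plin1 and Cidec under background on all 4 arrays. The 8 measured red cell markers summed to 9607 and 9199 on the HD arrays, against 8627 and 7227 on the RD arrays, with 1 of 3 tested higher and Hbb, Alas2 and Epor under background. The 8 hepatocyte markers, of the tissue best known for these enzymes, summed to 220 and 213 on the HD arrays, against 221 and 259 on the RD arrays, and 6 of them, Alb among them, lay under background on all 4 arrays. The part of cell makeup in the changes of the detoxification genes was not tested.

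The promoters of 5 genes with large or well known responses are shown, because the sequence letters can be set beside the array values given for each gene. They come from RefSeq on build GRCr8 and cover 300 bases around the annotated start, most of them before it, 5′ to 3′ on the gene's strand. Capitals mark the core of the antioxidant response element, searched as TGACNNNGC on both strands. Gene names are those of the authors' table, with the current RefSeq name where it differs.
Akr1cl1 (now Akr1c15, chr17:71117908-71118207, minus strand): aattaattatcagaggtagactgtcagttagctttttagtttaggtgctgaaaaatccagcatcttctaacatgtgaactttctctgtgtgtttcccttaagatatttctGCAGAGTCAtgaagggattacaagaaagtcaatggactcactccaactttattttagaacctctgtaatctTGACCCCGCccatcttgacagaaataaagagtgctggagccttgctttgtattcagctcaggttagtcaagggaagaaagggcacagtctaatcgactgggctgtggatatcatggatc
Gsta3 (now Gsta1, chr9:31216483-31216782, minus strand): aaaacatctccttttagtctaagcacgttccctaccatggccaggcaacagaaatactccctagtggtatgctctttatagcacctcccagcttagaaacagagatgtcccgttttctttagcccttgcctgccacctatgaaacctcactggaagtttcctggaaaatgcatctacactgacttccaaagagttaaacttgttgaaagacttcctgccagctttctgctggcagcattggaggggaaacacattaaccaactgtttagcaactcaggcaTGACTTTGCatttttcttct
Gsta5 (now Gsta3, first of 2 annotated starts, chr9:31154739-31155038, plus strand): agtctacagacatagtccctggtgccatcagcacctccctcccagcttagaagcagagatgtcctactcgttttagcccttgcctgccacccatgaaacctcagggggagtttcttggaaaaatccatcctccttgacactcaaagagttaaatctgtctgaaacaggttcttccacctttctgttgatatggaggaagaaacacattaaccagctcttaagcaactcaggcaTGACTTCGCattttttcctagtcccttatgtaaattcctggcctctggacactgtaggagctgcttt
Gstp1 (chr1:210769656-210769955, minus strand): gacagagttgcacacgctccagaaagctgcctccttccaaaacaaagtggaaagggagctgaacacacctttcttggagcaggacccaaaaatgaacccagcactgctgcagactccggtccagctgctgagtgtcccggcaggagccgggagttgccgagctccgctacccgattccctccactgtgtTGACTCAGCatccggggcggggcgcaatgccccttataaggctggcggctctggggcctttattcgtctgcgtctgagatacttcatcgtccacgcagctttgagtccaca
Nqo1 (chr19:52220218-52220517, minus strand): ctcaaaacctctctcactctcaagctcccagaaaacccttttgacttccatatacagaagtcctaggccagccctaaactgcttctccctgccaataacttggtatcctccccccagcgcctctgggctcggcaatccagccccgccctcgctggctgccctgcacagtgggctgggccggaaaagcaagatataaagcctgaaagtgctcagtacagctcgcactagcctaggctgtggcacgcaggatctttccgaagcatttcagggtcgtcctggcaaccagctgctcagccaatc

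The Akr1cl1 window held 2 matches, 1 on the opposite strand, and those of Gsta3, Gsta5 and Gstp1 held 1 each. The Gsta3 match lies 31 bases after the annotated start, the Gsta5 match 17 bases before it and the Gstp1 match 61 bases before it. The Gstp1 match, TGACTCAGC, also holds the AP-1 motif TGACTCA (searched with its reverse complement TGAGTCA). The Nqo1 window held 0 matches, as did the other start of Gsta5, which says only that these letters are not in those windows. Promoters were found for 51 of the 63 genes, 56 promoters in all. Of these, 11 (19.6%) held TGACNNNGC, beside 12.1% of all 33469 promoters, and 4 (7.14%) held the AP-1 motif, beside 4.63%. TGACNNNGC was present in 6 of 21 promoters (28.6%) of genes that were called lower and in 5 of 35 (14.3%) of the other detoxification genes. These shares were not tested, and a match is a description of letters and not of binding.

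Glutathione transferases, which join glutathione to reactive compounds, had 22 probes, of which 16 were tested. Of those, 8 fell at high density and 1 rose, with a median log2 change of -0.42. Lower calls made up 50% of the 16, beside the background of 17.7%. The 2 largest falls were in the alpha class. Gsta3 (now Gsta1) read 1020 and 1031 on the HD arrays, against 4141 and 4000 on the RD arrays, in intensity scaled so that all 4 arrays share 1 75th percentile. Both HD arrays were far below both RD arrays, and the log2 change was -1.99 (SE 0.09, adjusted p = 1.11e-04), a 3.97-fold lower signal. The authors' table places its probe at chr9:20051658-20051717. That table names no assembly and no exon.

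Gsta5 (now Gsta3), another alpha transferase, read 504 and 484 on the HD arrays, against 1475 and 1520 on the RD arrays. The groups did not overlap, and the log2 change was -1.60 (SE 0.09, adjusted p = 2.02e-04). Gsta4, which removes the lipid peroxidation product hydroxynonenal, read 466 and 423 on the HD arrays, against 790 and 696 on the RD arrays, with a log2 change of -0.74 (SE 0.11, adjusted p = 0.00558). All 3 alpha class probes chosen by symbol were thus lower. Alpha class genes are close in sequence, and whether these probes also bind RNA of their relatives was not tested. Outside the choice by symbol, another probe under the RefSeq name Gsta3 lay under background on every array. It read 11.8 and 1.43 on the HD arrays, against 10.6 and 1.65 on the RD arrays. Why the probes under that name differ in signal was not tested. The Gsta2 probe also lay under background on every array, and that of Gsta6 was too dim to test. The probe now named Gsta5 was lower, with a log2 change of -1.75.

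The mu class was uneven. Gstm7 read 43.6 and 56.0 on the HD arrays, against 145 and 143 on the RD arrays. Both HD arrays were low, though above background, and the log2 change was -1.54 (SE 0.19, adjusted p = 0.00275). Gstm5 fell less, with a log2 change of -0.70 (SE 0.11, adjusted p = 0.00599). Gstm4, Gstm2 and Gstm1 did not pass, at log2 changes of -0.46, -0.29 and -0.08. The 4 other mu class probes, 2 of Gstm3 and those of Gstm6 and Gstm6l, were too dim to test, and the Gstm3 probes differed from each other, at 0.57 and -0.05.

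The pi, theta, omega and kappa classes had 7 probes. Gstp1, the pi class enzyme, read 1311 and 1339 on the HD arrays, against 2163 and 2325 on the RD arrays. The RD arrays were higher without overlap, and the log2 change was -0.76 (SE 0.10, adjusted p = 0.00295). Gstt1, a theta class enzyme that acts on small halogenated compounds, had a log2 change of -0.62 (adjusted p = 0.0174). Gsto1, Gstt2 and Gstk1 did not pass, at log2 changes of -0.35, -0.37 and -0.16, and Gsto2 and Gstt3 were too dim.

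The 3 microsomal enzymes, which sit in membranes, went different ways. Mgst3, which reduces lipid hydroperoxides and can make leukotriene C4, read 663 and 572 on the HD arrays, against 325 and 341 on the RD arrays. It was high on both HD arrays, and its log2 change of 0.89 (SE 0.11, adjusted p = 0.00306) made it the only detoxification probe called higher. Mgst2, which also makes leukotriene C4, had a log2 change of -0.38 (adjusted p = 0.0250). Mgst1 stood at 0.06 and did not pass. The calls of Gstt1 and Mgst2 depended on single arrays: without HD replicate 2 their adjusted p was 0.0518 and 0.130, without RD replicate 1 that of Gstt1 was 0.0622, and without HD replicate 1 or RD replicate 2 that of Mgst2 was 0.161 and 0.0534.

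**Figure D3:**
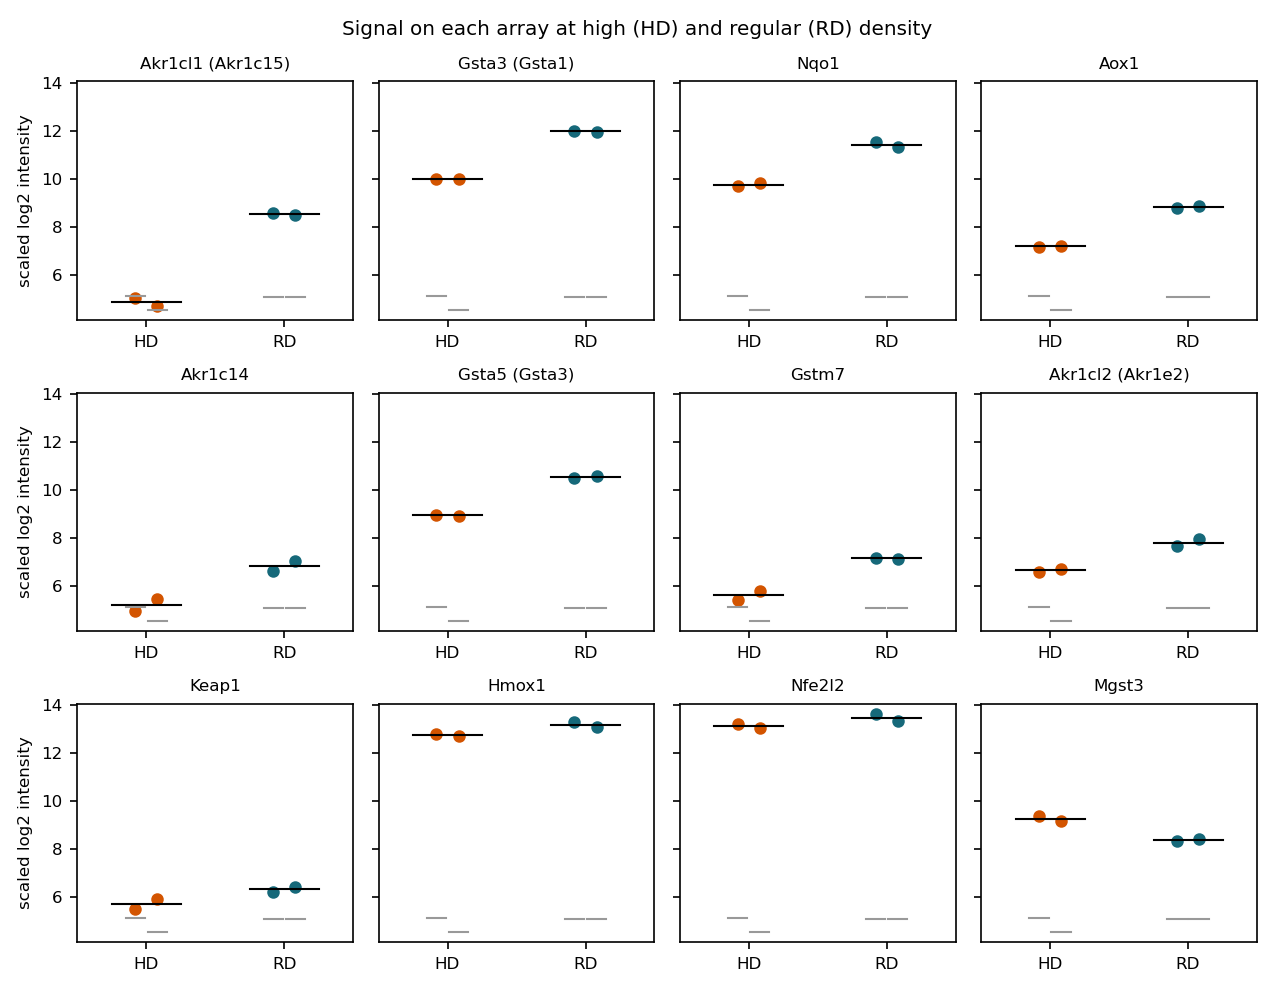
Scaled log2 intensity (y axis) of 12 detoxification probes on each HD array (orange) and each RD array (teal), with the group mean as a black line and each array's background, the 99th percentile of its negative control spots, as a grey line. Akr1cl1 at high density sits at the background lines, the other falls stay above them on most arrays, and Mgst3 is the panel where the HD points are the higher ones.

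Carbonyl and quinone reductases, which turn aldehydes, ketones and quinones into less reactive alcohols and hydroquinones, had 16 probes. Of the 13 tested, 8 fell and 0 rose, with a median log2 change of -0.64. Lower calls made up 61.5% of the 13, beside the background of 17.7%. Akr1cl1 (now Akr1c15), an aldo-keto reductase of the family that acts on steroids and lipid aldehydes, had the largest fall of all 70 probes. It read 33.3 and 26.3 on the HD arrays, against 391 and 369 on the RD arrays. Of the HD arrays only 1 was above background, and the RD arrays were far above it. The log2 change was -3.68 (SE 0.17, adjusted p = 1.14e-04), and -3.54 with intensities under 32 set to 32. The mean of the HD arrays was under the level needed for testing, so the probe was tested because of its RD signal, and the size of the change is set by a group at background. Its probe lies at chr17:77341377-77341436 in the authors' coordinates.

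Nqo1, the quinone reductase most often used to read out NRF2 activity, read 850 and 908 on the HD arrays, against 2982 and 2583 on the RD arrays. The groups were well apart, and the log2 change was -1.66 (SE 0.11, adjusted p = 2.79e-04). The related Nqo2 stood at -0.25 and did not pass.

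Other aldo-keto reductases were lower too. Akr1c14, the rat hydroxysteroid dehydrogenase, read 31.1 and 44.4 on the HD arrays, against 98.9 and 131 on the RD arrays. Of its HD arrays 1 was above background, and the log2 change was -1.62 (SE 0.26, adjusted p = 0.00695). It too was tested because of its RD signal. Akr1cl2 (now Akr1e2), an anhydrofructose reductase, had 2 probes, and both fell, with log2 changes of -1.15 (adjusted p = 0.00379) and -0.87 (adjusted p = 0.0105). The first of them read 97.2 and 107 on the HD arrays, against 203 and 252 on the RD arrays. The groups did not overlap on either probe.

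The Akr1b genes, relatives of aldose reductase, fell less. Akr1b8 read 1952 and 1944 on the HD arrays, against 3251 and 2901 on the RD arrays, with a log2 change of -0.66 (adjusted p = 0.00584). Akr1b1, aldose reductase itself, stood at -0.36 (adjusted p = 0.0274), and Akr7a2, which reduces aflatoxin dialdehyde and succinic semialdehyde, had -0.48 (adjusted p = 0.0166). Without HD replicate 1 and without HD replicate 2, the adjusted p was 0.189 and 0.141 for Akr1b1 and 0.0772 and 0.0672 for Akr7a2. Akr1a1, which reduces many aldehydes, and the carbonyl reductases Cbr1, Cbr3 and Cbr4 did not pass, with log2 changes of -0.07, -0.33, -0.03 and -0.64. Akr1c13 (now Akr1c12), Akr1c12l1 and Akr7a3 were too dim. Akr1c genes are close in sequence and lie side by side, and cross-binding of their probes was not tested.

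Aldehyde dehydrogenases and aldehyde oxidases, which turn aldehydes into acids, had 15 probes, all tested. Of these, 4 fell and 0 rose, with a median log2 change of -0.22. Lower calls made up 26.7% of them, beside the background of 17.7%. Aox1, the molybdenum-containing aldehyde oxidase, read 145 and 150 on the HD arrays, against 441 and 471 on the RD arrays. The groups were far apart, and the log2 change was -1.63 (SE 0.11, adjusted p = 2.69e-04). The other 3 falls were smaller. Aldh1l1, which oxidises formyltetrahydrofolate in folate metabolism, read 128 and 142 on the HD arrays, against 212 and 241 on the RD arrays, with a log2 change of -0.74 (adjusted p = 0.00961).

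Aldh3a2, which oxidises fatty aldehydes, and Aldh18a1, which makes the precursor of proline, had 2 probes each that disagreed. For Aldh3a2 the log2 change was -0.48 (adjusted p = 0.0240) on 1 probe and 0.00 on the other. For Aldh18a1 it was -0.46 (adjusted p = 0.0403) on 1 probe and -0.21 on the other, which did not pass. Both calls were lost without HD replicate 1 (adjusted p = 0.0844 and 0.208) and without RD replicate 2 (adjusted p = 0.0525 and 0.107), and that of Aldh3a2 also without HD replicate 2 (0.0562). The 11 probes that were not called ranged from -0.39 for Aldh5a1 to 0.13 for Aldh7a1. Aldh2, the mitochondrial enzyme that clears acetaldehyde, read 4927 and 4444 on the HD arrays, against 6053 and 4890 on the RD arrays, and its groups overlapped.

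Peroxidases, which remove peroxides, and disulfide reductases, which restore reduced glutathione and thioredoxin, had 14 probes. Of the 11 tested, 4 fell and 0 rose, with a median log2 change of -0.30. Lower calls made up 36.4% of the 11, beside the background of 17.7%. Gpx3, the secreted glutathione peroxidase, read 563 and 539 on the HD arrays, against 851 and 830 on the RD arrays. The arrays within a group were close, and the log2 change was -0.61 (SE 0.09, adjusted p = 0.00591). Both probes of Gpx4, which reduces lipid hydroperoxides in membranes, fell, with log2 changes of -0.57 (adjusted p = 0.0137) and -0.53 (adjusted p = 0.0106). Gpx1, the main cytosolic peroxidase, had a log2 change of -0.31 (adjusted p = 0.0458).

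The calls of the brightest probes moved with the scaling and with single arrays. The call of Gpx1 was lost without any 1 of the 4 arrays (adjusted p 0.0640 to 0.263), and with quantile scaling its log2 change was -0.12. The brighter probe of Gpx4 had an adjusted p of 0.0537 without HD replicate 2 and a log2 change of -0.23 (adjusted p = 0.0716) with quantile scaling. Among all tested probes with a mean log2 intensity of 12 or more, the median change was -0.31 and 43.4% were called lower. The 10 detoxification probes in that range, those of Gpx1, Gpx4 and Hmox1 among them, had a median of -0.32, and 4 of the 10 were called lower.

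The enzymes that restore reduced glutathione and thioredoxin did not pass the test. Gsr, glutathione reductase, read 193 and 192 on the HD arrays, against 174 and 191 on the RD arrays, with a log2 change of 0.08 (SE 0.12), which was -0.05 with median scaling. Txnrd1, the cytosolic thioredoxin reductase, had log2 changes of -0.11 and -0.30 on its 2 probes. The brighter of them read 474 and 457 on the HD arrays, against 499 and 508 on the RD arrays. Txnrd2, its mitochondrial relative, stood at 0.18 and Txnrd3 was too dim.

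Other peroxidases did not pass either. Gpx8, a resident of the endoplasmic reticulum, had a log2 change of -0.33. Gpx7, which sits in the same compartment, had 0.41 (adjusted p = 0.0714), and Gpx2, the form known from gut epithelium, had 0.66 (adjusted p = 0.0620). Without HD replicate 1 Gpx7 was called higher (0.60, adjusted p = 0.0256), and without HD replicate 2 Gpx2 was (0.81, adjusted p = 0.0470). With the replicate number as a block, both were called higher (adjusted p = 0.00782 for Gpx7 and 0.0217 for Gpx2). A second Gpx2 probe and Gpx6 were not tested. They were under background on both RD arrays, and their signal was at least 1.14-fold and at least 1.30-fold higher on the HD arrays, as the mean of the HD arrays over the level of background on the RD arrays.

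The NRF2 switch and haem oxygenase had 3 probes, all tested, and 1 of them fell, where the background was 17.7% lower. Hmox1, haem oxygenase, a target of NRF2 and of the repressor BACH1, read 7005 and 6609 on the HD arrays, against 10097 and 8628 on the RD arrays. The RD arrays were higher without overlap, and the log2 change was -0.46 (SE 0.11, adjusted p = 0.0263). The call was lost without HD replicate 1, HD replicate 2 or RD replicate 1 (adjusted p = 0.0642, 0.101 and 0.0601). With quantile scaling the log2 change was -0.24 (adjusted p = 0.10).

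Nfe2l2, which encodes NRF2, read 9337 and 8353 on the HD arrays, against 12505 and 10271 on the RD arrays. The groups did not overlap, but the log2 change of -0.36 (SE 0.13, adjusted p = 0.0789) did not pass the test. It passed without RD replicate 2 (-0.50, adjusted p = 0.0277). It was -0.22 (adjusted p = 0.215) without RD replicate 1 and -0.11 with quantile scaling (adjusted p = 0.475) and with the authors' normalized values (adjusted p = 0.480). Keap1 read 46.4 and 61.9 on the HD arrays, against 75 and 87.2 on the RD arrays, with a log2 change of -0.59 (SE 0.23, adjusted p = 0.0961) that did not pass. It passed without HD replicate 2 (adjusted p = 0.0386) and with median scaling (adjusted p = 0.0419), and was -0.39 (adjusted p = 0.381) without HD replicate 1. NRF2 is controlled mainly at the protein level, which arrays do not measure.

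**Figure D4:**
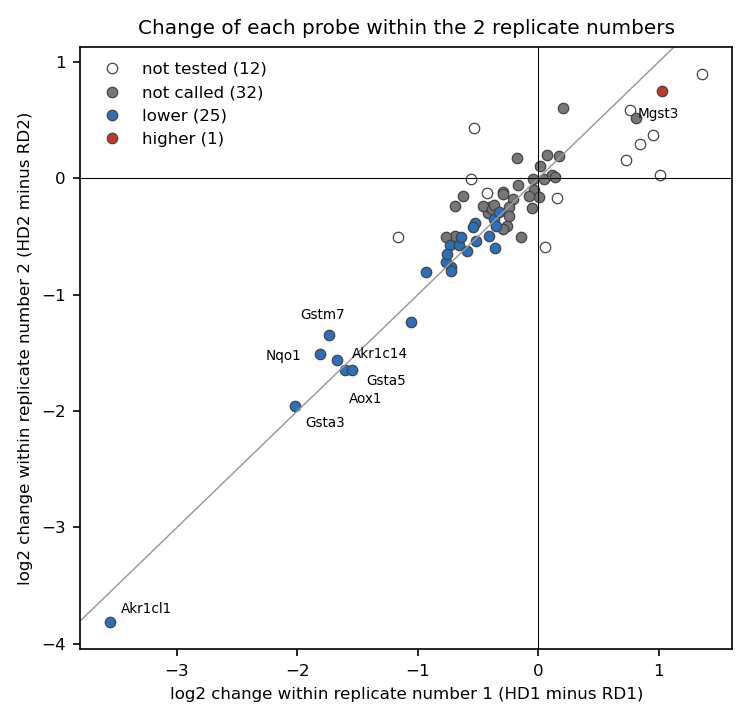
Log2 change of each of the 70 detoxification probes within replicate number 1 (HD1 minus RD1, x axis) and within replicate number 2 (HD2 minus RD2, y axis), with a line where both are equal. The 25 probes called lower (blue) lie at the lower left, under 0 on both axes, and Mgst3 (red) at the upper right, as the groups of each called probe did not overlap.

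The replicate numbers were looked at separately because the median of the negative control spots was 13.4 and 1.93 on HD replicates 1 and 2, and 10.53 and 1.99 on RD replicates 1 and 2. Within the numbers, Akr1cl1 changed by -3.55 and -3.81 on the log2 scale, Gsta3 by -2.02 and -1.96, Nqo1 by -1.81 and -1.51, and Mgst3 by 1.03 and 0.75. Across all tested probes the groups did not overlap for 69.2%, and among the tested detoxification probes this held for 49 of 58.

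Other genes of detoxification were read from 2 lists, of 98 symbols in all, of which 93 were measured and 69 tested. Of these, 3 rose and 17 fell, or 24.6% lower beside the background of 17.7%, and the median log2 change was -0.14. Among phase I enzymes, Cyp4b1, a cytochrome P450 that oxidises fatty acids and some toxins, read 91.6 and 92.7 on the HD arrays, against 467 and 441 on the RD arrays. Both HD arrays were low, and the log2 change was -2.30 (SE 0.11, adjusted p = 0.000128). Cyp1b1, a target of the aryl hydrocarbon receptor, and Ephx1, the microsomal epoxide hydrolase, were called higher, with log2 changes of 0.44 (adjusted p = 0.0484) and 0.45 (adjusted p = 0.0357). Neither call held with quantile, median or no scaling, and that of Cyp1b1 was lost without any 1 of the 4 arrays (adjusted p 0.0510 to 0.270) and that of Ephx1 without either HD array or RD replicate 2 (0.0888 to 0.181). Xdh, xanthine dehydrogenase, fell by 0.89 on the log2 scale (adjusted p = 0.00202).

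The exporters went different ways. Abcc1, which pumps glutathione conjugates out of cells, read 1286 and 1144 on the HD arrays, against 676 and 581 on the RD arrays. It was high on both HD arrays, with a log2 change of 0.95 (SE 0.12, adjusted p = 0.00284). Abcb1b, a P-glycoprotein, read 1337 and 1366 on the HD arrays, against 2722 and 2503 on the RD arrays, with a log2 change of -0.95 (SE 0.10, adjusted p = 0.00130).

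Among antioxidant genes, Sod2, the mitochondrial superoxide dismutase, and Cat, catalase, fell, with log2 changes of -0.69 (adjusted p = 0.00430) and -0.55 (adjusted p = 0.0151). Sqstm1, whose protein p62 binds KEAP1, fell by 0.84 (adjusted p = 0.00319). Some preset genes known as NRF2 targets did not pass the test: Slc7a11, the cystine transporter, at 0.06, Srxn1, sulfiredoxin, at -0.20, and Txn1, thioredoxin, at 0.23. Me1 and Abcc4 of the same list were called lower, at -0.36 (adjusted p = 0.0301) and -0.47 (adjusted p = 0.0404). Both calls were lost with no scaling (adjusted p = 0.539 and 0.409). Sod1, the cytosolic dismutase, stood at -0.12. Of the 8 regulators tested, 1 fell (12.5%, beside the background of 17.7%), Nfe2l1, a relative of NRF2 that drives proteasome genes. It read 545 and 500 on the HD arrays, against 1133 and 967 on the RD arrays, with a log2 change of -1.0 (SE 0.12, adjusted p = 0.00216). Bach1 was too dim to test.

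The 5 probes whose centred values on the 4 arrays were most like those of Akr1cl1, by the summed absolute difference over 4637 other called probes, were Mt2A (0.37), 1 unnamed probe (0.41), Mt1 (0.49), Pmel (0.58) and Apln (0.69). Mt2A and Mt1 are metallothioneins, small proteins that bind zinc and copper. Mt2A read 3366 and 3175 on the HD arrays, against 47291 and 44005 on the RD arrays. The measure rests on 4 arrays in 2 groups. Pmel and Apln were under background on both HD arrays and Akr1cl1 on 1 of them, so these distances rest in part on background signal and their order is not firm.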

How the data were processed

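Total RNA of the 4 samples was labelled with Cy3 and hybridised to 1-colour arrays, per the labels' protocols. The deposited spot table holds intensity after the scanner software's processing, per the file headers, from Agilent Feature Extraction 11.0.1.1 per the submitters' processing notes. The header also names GeneSpring GX 12.0. A probe table deposited by the authors gives raw intensity and normalized log2 values of 21473 probes, and the series matrix holds the same log2 values. The method behind these log2 values is not given in the sources used here.

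Without control spots, and with repeated spots of a probe averaged on the log2 scale, there were 30367 probes. Each array was scaled by its 75th percentile of log2 intensity, with the mean of these percentiles added back, and the 75th percentile intensity was 355 to 462. Background was the 99th percentile of 153 negative control spots. Probes were tested where their mean over the 4 arrays, on the log2 scale, exceeded 5.62, which is the median probe's mean. HD and RD were compared by limma 3.58.1 under R 4.3.3. The test was two-sided, with moderated variances, an intensity trend and Benjamini-Hochberg adjustment over all tested probes. It had 2 residual and 4.46 prior degrees of freedom. Precision is limited by the number of arrays, 2 per group. The p-values reflect only how far these samples spread, with each probe's variance drawn towards that of probes of like intensity. The method was run on data simulated from its own fitted variances with independent errors. Such data cannot show whether those variances or that independence hold for these arrays. Tables were made with Python 3.11.15 and pandas 2.3.3.

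Member symbols are those of the authors' table, and 6 probes had an updated RefSeq symbol. Each listed gene that is no member is given by its brightest probe. Any member may be named. Values per array are given for members that changed by a fold of 2 or more, for the smallest p of each role and for the regulators, and for some further members that were chosen after their values were seen. From the 2 lists of other genes, up to 6 with the smallest p in each direction and 7 preset names are given. Me1 and Abcc4 were added after their values were seen. Some items are not reported here. The members, lists and tests were chosen with earlier results of these data known. Alternatives were other scalings, a floor of 32, the authors' log2 values, other filters, the brightest probe per symbol, other variance models, a fold threshold of 2, a replicate block and the omission of single arrays.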

Additional observations from a re-analysis of the deposited data

How the results depend on the processing

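As reported, 4638 probes were called, 1 detoxification probe was higher and 25 lower with a median of -0.36, and 3 genes of the other lists were higher and 17 lower. With quantile scaling 2 detoxification probes were higher (Aldh7a1 beside Mgst3) and the median was -0.31, as with the authors' values and the series matrix (2 and -0.31). With median scaling the median was -0.49 and 1 listed gene was higher. With no scaling 2132 probes were called, 9 detoxification probes were lower, the median was -0.26, and 1 listed gene was higher and 6 lower. With no filter on dim probes 2 detoxification probes were higher (Gpx7 beside Mgst3), and with no variance trend 2 (Gpx2 beside Mgst3). With a fold of 2 or more required, 952 probes, 0 higher and 8 lower detoxification probes, and 0 higher and 3 lower listed genes were called. With the replicate number as a block, 7641 probes, 3 higher and 37 lower detoxification probes, and 10 higher and 21 lower listed genes were called, and the median stayed at -0.36. Calls also rose over all 15183 tested probes, to 3130 higher and 4511 lower with the block from 1948 higher and 2690 lower as reported. The larger counts with the block are thus not particular to the detoxification probes. Nfe2l2 (adjusted p = 0.00468) and Keap1 (0.0230) then passed as lower, and Gpx2 (0.0217) and Gpx7 (0.00782) as higher. The deviations of same-numbered arrays correlated at 0.37, but with 2 pairs and no label that ties the numbers across groups they were not treated as pairs. Leaving out 1 array gave 2569 to 4363 called probes (2569 without HD replicate 1), 1 to 2 higher and 18 to 24 lower detoxification probes, medians of -0.38 to -0.35, and 2 to 4 higher and 12 to 17 lower listed genes. After seeing the data 2 alternatives were added: requiring a further digit after Akr1 and Akr7 left 59 probes, 1 higher and 18 lower with a median of -0.33, and leaving out the 14 aldehyde dehydrogenase probes gave 1 higher and 22 lower with a median of -0.42. Of the 26 called detoxification probes, 0 reversed under any alternative run, and 9 lost the call without some 1 array. The cause of each change was not tested. Dim probes limit what can be said of 12 of the 70 detoxification probes.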

Other observations

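Probes of the same families outside the choice by symbol were also read, as values chosen after the data were seen. There were 33 such probes of 29 genes, and 6 were bright enough to test. Of the 6, 1 fell (16.7%, beside the background of 17.7%), 1 rose (16.7%, beside 12.8%) and 4 did not pass. The probe now named Gsta5 in RefSeq, which is not the Gsta5 of the authors' table, read 26.5 and 38.5 on the HD arrays, against 119 and 97.0 on the RD arrays, with a log2 change of -1.75 (limma adjusted p = 0.00548), and 1 of its HD arrays was above background. The mean of its HD arrays was under the level needed for testing, so this probe was tested because of its RD signal. Mgst3l1, a relative of Mgst3, read 153 and 147 on the HD arrays, against 85.5 and 98.8 on the RD arrays, with a log2 change of 0.71 (limma adjusted p = 0.0161). Gclc, the catalytic subunit of the enzyme that starts glutathione synthesis, read 1473 and 1550 on the HD arrays, against 1799 and 1751 on the RD arrays, and its log2 change of -0.23 (limma adjusted p = 0.108) did not pass the test. The tested probes of Aldh4a1, Gstm4 and Gstp3 did not pass either, at log2 changes of -0.46, -0.25 and -0.23. A second Aldh4a1 probe was too dim to test and differed in sign, at 0.78. The probe of Gclm, the partner of Gclc, lay under background on all 4 arrays, as did those of the retinal dehydrogenases Aldh1a1, Aldh1a2 and Aldh1a3 and of the aldehyde oxidases Aox2, Aox3 and Aox4.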
